A study of Danio rerio with 6 samples.

Results

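By their names, the 9 genes described here encode enzymes that make or break down prostaglandins, and 1 receptor for them: ptgs1, ptgs2a, ptgs2b, ptgdsb.1, ptgdsb.2, ptges, ptges3a, hpgd and ptger4b. They were chosen by name, and each name stands on 1 of the 31901 rows of the deposited count table. The choice was made with earlier results of the same BMS-against-vehicle comparison known, so the differences of these genes between the groups are given as descriptions and support nothing. The data are RNA sequencing counts from zebrafish (Danio rerio) tail fins that were growing back after amputation. The fish carried shha:GFP, a reporter that makes cells with activity of the Hedgehog ligand gene shha fluoresce. The treated group (BMS, 3 libraries with replicate numbers 2, 3 and 4) received 40 mg/kg of BMS-833923, an inhibitor of the Hedgehog signal transducer Smoothened, injected into the body cavity at 4 days after amputation. The vehicle group (3 libraries with the same numbers) received the injection buffer alone, a mixture of 50% PEG-400, 5% propylene glycol and 0.5% Tween-80. All fins were taken 5 hours after injection, the tissue kept was the shha:GFP domains and what lay distal to them, and 1 library holds RNA of 4 pooled regenerates. For BMS replicates 3 and 4 the last digits of the compound name differ from those of replicate 2 in the labels, and the 3 libraries were taken as 1 treatment. The genotype field calls the treated fish Smoothened inhibited, although the fish of both groups carry the same transgene and differ by the injection. The labels do not say that the pools came from separate experiments, so the spread between libraries may be in part technical.

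Prostaglandins are local lipid signals that act on the cell that makes them and on its neighbours. Phospholipases free arachidonic acid from membranes, the cyclooxygenases ptgs1 and ptgs2 turn it into an unstable common precursor, and a terminal synthase then makes each product, such as prostaglandin D, prostaglandin E or prostacyclin. The products leave the cell, act on receptors of the G protein-coupled class, and are taken up again and inactivated, chiefly through the dehydrogenase encoded by hpgd. In vertebrate skin and other injured tissues this system is known for its part in inflammation, blood flow and repair.

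Total counts ran from 16978747 to 22659275 in BMS libraries and from 21491345 to 22594355 in vehicle libraries. BMS replicate 2 stood apart: it was at 75.7 on the first principal component of the log2 levels, where the other 5 libraries lay between -35.3 and 17.2, its ribosomal protein genes took 9.09% of counts against 4.05% to 6.72% elsewhere, and its TMM scaling factor was 0.78 against 0.95 to 1.12. Fitted log2 fold changes of named genes that moved by over 1.5 times without this library are given with and without it. The Hedgehog target genes gli1 and hhip were lower in each BMS library than in any vehicle library, and ptch1 was lower within each same-number pair. Libraries of the same number in both groups deviated from their group means together, and are called pairs below. Levels are given as CPM, counts scaled to a common library size with TMM factors. They are not divided by transcript length, so they are compared between libraries and not between genes. Fewer cells of a type and less RNA per cell cannot be told apart in such pooled tissue.

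Of the 9 genes, 8 passed the filter on low counts and ptgdsb.2 did not. Across all 18541 rows tested, edgeR's quasi-likelihood test called 0 rows at an adjusted p of 0.05 (0% of rows), so none of the 8 genes was called. An unadjusted p under 0.05 was reached by 198 of the 18541 rows. This is less than the share of 0.05 that p-values would give on average without any difference. With the replicate number as a block, the same test gave an unadjusted p under 0.05 in 1307 rows, more than that share, and called 0. The SEs and intervals below come from the fit without the block unless stated, so they also hold the differences between pairs. With the block the SE of each of the 8 genes was smaller, such as 0.15 against 0.27 for ptges3a and 0.35 against 0.37 for ptger4b. DESeq2 and edgeR's likelihood ratio test without the pairs called 1 row each, which was hhip in both. DESeq2 with the replicate number as a block called 72 rows (0.388% of rows), of which 51 were higher in BMS (0.275%), and 1 of the 8 genes, ptgdsb.1, was among those 51. In the fit without the block, 5 of the 8 genes had positive log2 fold changes and 3 had negative ones, with a median of 0.27 against 0.01 over all rows tested. Over all rows tested, 9553 values were positive and 8988 negative, to be read beside the counts of signs below. None of the 8 genes had BMS and vehicle ranges that did not overlap, as 3.92% of all rows tested did (BMS above vehicle in 2.16% and below it in 1.76%). Within pairs, ptgdsb.1, ptges3a and hpgd were higher in BMS in 3 of 3 pairs, as were 14.1% of all rows tested, and none was lower in 3 of 3 pairs, as 17.5% of rows were.

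**Figure D1:**
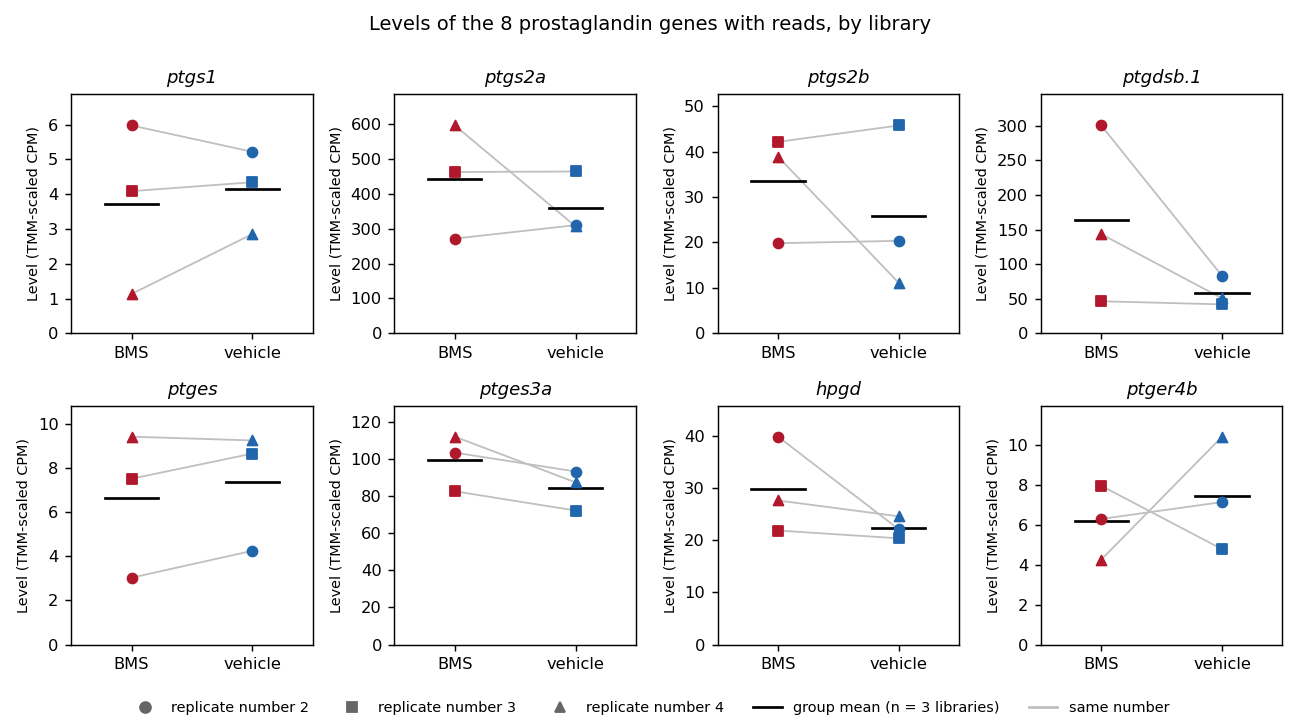
Level of each of the 8 prostaglandin genes with reads (vertical axes from 0, TMM-scaled CPM) in BMS libraries (red) and vehicle libraries (blue), with symbols for the replicate number, grey lines between libraries of the same number and black bars for the mean of 3 libraries. The BMS libraries of ptgdsb.1 spread from 46.3 to 301 CPM, and in each panel the ranges of both groups overlap.

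Of the cyclooxygenase genes, ptgs1 encodes the form that mammals express constitutively. It had 79, 86 and 28 reads in BMS replicates 2, 3 and 4, against 107, 103 and 72 reads in vehicle replicates 2, 3 and 4. In CPM these were 5.98, 4.09 and 1.13 in BMS libraries and 5.22, 4.35 and 2.86 in vehicle libraries. The lowest library of each group was replicate 4, and the groups overlapped. The log2 fold change was -0.17 ± 0.53 (SE, edgeR quasi-likelihood fit, as in the next values), with a 95% interval from -1.35 to 1.01. It was 0.28 without BMS replicate 4 and -0.69 without BMS replicate 2, so its sign depended on the libraries used.

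The inducible cyclooxygenase, known in mammals as COX-2, has a pair of copies in zebrafish, ptgs2a and ptgs2b. The level of ptgs2a was 271, 462 and 596 CPM in BMS replicates 2, 3 and 4, and 310.0, 464 and 306 CPM in vehicle replicates 2, 3 and 4. BMS replicate 4 was the highest of the 6 libraries and BMS replicate 2 the lowest, so the treated libraries enclosed the vehicle range. The means were 443 ± 163 CPM in BMS and 360 ± 89.9 CPM in vehicle (SD, n = 3 libraries each, as in the next means), and the log2 fold change was 0.30 ± 0.36 (interval -0.50 to 1.1). Within pairs the log2 differences, BMS minus vehicle, were -0.19, 0.00 and 0.96 for numbers 2, 3 and 4. The positive fitted value thus came from the pair of number 4, and without both libraries of that number it was -0.077. Without BMS replicate 2 it was 0.58.

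The second copy, ptgs2b, was like ptgs2a in being higher in BMS within number 4 alone, while its highest and lowest libraries were others. It stood at 19.8, 42.1 and 38.9 CPM in BMS replicates 2, 3 and 4, against 20.3, 45.7 and 11.1 CPM in vehicle replicates 2, 3 and 4. Vehicle replicate 4 was the lowest library and vehicle replicate 3 the highest. The vehicle libraries of ptgs2b were widely spread: the SD of their log2 levels, 1.0, was greater than that of 99.1% of the 16589 tested rows with a mean of at least 1 CPM. Its fitted log2 fold change was 0.39 ± 0.49 (interval -0.71 to 1.49). It was 1.1 without vehicle replicate 3, 0.68 without BMS replicate 2, 0.02 without vehicle replicate 4 and -0.092 without both libraries of number 4. Within pairs it differed by -0.04, -0.12 and 1.77 log2 units for numbers 2, 3 and 4.

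Reads of ptgs2b made up 6.81%, 8.35% and 6.13% of the reads of both copies in BMS replicates 2, 3 and 4, and 6.16%, 8.98% and 3.49% in vehicle replicates 2, 3 and 4. The share was lowest in vehicle replicate 4 and highest in vehicle replicate 3, while the BMS libraries lay between them. With the reads of both copies summed, the log2 fold change was 0.31. In RefSeq's zebrafish annotation (assembly GRCz12tu, used for names and gene order only), each copy lies beside a gene for a cytosolic phospholipase A2, the class of enzyme that releases arachidonic acid: pla2g4aa is the neighbour of ptgs2a, and pla2g4ab that of ptgs2b. The level of pla2g4aa was 10.97, 55.1 and 19.7 CPM in BMS replicates 2, 3 and 4, and 21.8, 40.9 and 29.0 CPM in vehicle replicates 2, 3 and 4. Unlike ptgs2a, it was lower in BMS replicate 4 than in vehicle replicate 4. The neighbour of ptgs2b, pla2g4ab, had 4 to 7 reads in BMS libraries and 6 to 7 reads in vehicle libraries and did not pass the filter.

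Among the terminal synthases, ptgdsb.1 had the largest fitted difference of the 8 genes. By its name it encodes a prostaglandin D synthase of the lipocalin type, a family of small secreted proteins that carry lipids. Whether its product makes prostaglandin D was not measured here. The gene had 3971, 974 and 3549 reads in BMS replicates 2, 3 and 4, against 1701, 991 and 1274 reads in vehicle replicates 2, 3 and 4. The corresponding levels were 301, 46.3 and 143 CPM in BMS libraries, and 83.0, 41.8 and 50.6 CPM in vehicle libraries. BMS replicates 2 and 4 lay above every vehicle library, and BMS replicate 3 lay within the vehicle range. The means were 163 ± 128 CPM in BMS and 58.5 ± 21.7 CPM in vehicle.

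The log2 fold change of ptgdsb.1 was 1.48 ± 0.57 without the block (interval 0.20 to 2.76) and 1.18 ± 0.30 in the quasi-likelihood fit with it (interval 0.50 to 1.87). These intervals are not adjusted for the number of rows tested, and neither fit called ptgdsb.1 (adjusted p = 0.553 with the block). The unblocked value stayed positive with any 1 library left out, at 0.74 without BMS replicate 2 and up to 1.92 without BMS replicate 3. Its call by DESeq2 with the block (adjusted p = 0.0110) was lost without both libraries of number 2 and without both of number 4. There the value was 0.83 and 1.01. The call was kept without both of number 3, the pair in which the difference was smallest. The spread of its log2 levels between BMS libraries, an SD of 1.35, exceeded that of 99.4% of the rows with a mean of at least 1 CPM. Between vehicle libraries the SD was 0.51, above that of 87.6% of these rows. The treated libraries of ptgdsb.1 thus differed more among themselves than its vehicle libraries did.

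The neighbouring gene ptgdsb.2, by its name a second prostaglandin D synthase of the same type, had 0 reads in each of the 6 libraries. With 0 counts a library can hold as much as 0.121 to 0.227 CPM in BMS and 0.119 to 0.146 CPM in vehicle (the level of 3 counts, covering counting error only). How reads shared by both copies were counted is not given in the sources used here, so the 0 does not show that ptgdsb.2 was silent, and the value of ptgdsb.1 could hold reads of either copy. The third gene of this type, ptgdsa, had 0 to 1 reads per library in both groups.

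The prostaglandin E synthase genes among the 9 are ptges and ptges3a. The membrane-bound form, ptges, which is inducible in mammals, was at 3.03, 7.51 and 9.42 CPM in BMS replicates 2, 3 and 4, and at 4.25, 8.65 and 9.25 CPM in vehicle replicates 2, 3 and 4. In both groups replicate 2 was lowest and replicate 4 highest, and the pairs differed by less than the libraries of 1 group did. For ptges the fitted value was -0.14 ± 0.45 (interval -1.14 to 0.85), and 0.22 without BMS replicate 2. The product of ptges3a, also known as the Hsp90 co-chaperone p23, was first described as a cytosolic prostaglandin E synthase. Its level was 104, 82.7 and 112 CPM in BMS replicates 2, 3 and 4, and 93.4, 72.3 and 87.5 CPM in vehicle replicates 2, 3 and 4. Each BMS library was above its pair, by 0.15, 0.19 and 0.36 log2 units for numbers 2, 3 and 4, while the groups overlapped. For ptges3a the fitted value was 0.24 ± 0.27 (interval -0.36 to 0.83), and 0.13 to 0.35 with 1 library left out.

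The breakdown enzyme gene hpgd encodes hydroxyprostaglandin dehydrogenase, which inactivates prostaglandin E and related products. It was at 39.9, 21.9 and 27.6 CPM in BMS replicates 2, 3 and 4, and at 22.1, 20.4 and 24.6 CPM in vehicle replicates 2, 3 and 4. BMS replicate 2 was the highest library, and BMS replicate 3 lay within the vehicle range. The means were 29.8 ± 9.20 CPM in BMS and 22.4 ± 2.12 CPM in vehicle. Its log2 fold change was 0.41 ± 0.30 (interval -0.25 to 1.07) and was 0.16 without BMS replicate 2. The vehicle libraries of hpgd were close together, with an SD of log2 levels of 0.13 that exceeded that of 14.2% of the rows with a mean of at least 1 CPM.

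The receptor gene ptger4b encodes a zebrafish EP4 receptor, which binds prostaglandin E and raises cyclic AMP. Its level was 6.28, 7.94 and 4.24 CPM in BMS replicates 2, 3 and 4, and 7.12, 4.77 and 10.4 CPM in vehicle replicates 2, 3 and 4. The order of the libraries was reversed between the groups: BMS was lower within numbers 2 and 4 and higher within number 3. Its log2 fold change was -0.27 ± 0.37 (interval -1.1 to 0.56), with 0.047 without vehicle replicate 4 and 0.26 without both libraries of number 4. The other EP4 rows, ptger4a and ptger4c, had 0 reads in each library.

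**Figure D2:**
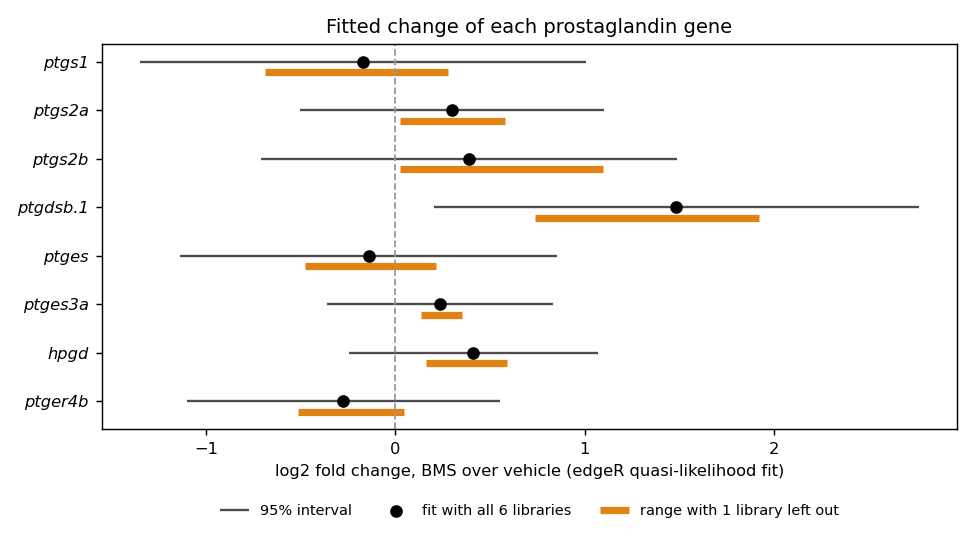
Fitted log2 fold change, BMS over vehicle, of the 8 genes in the edgeR quasi-likelihood fit without the block (points), with its 95% interval (grey) and the range of the fitted value when 1 library was left out (orange). Of the 8 intervals, that of ptgdsb.1 (0.20 to 2.76) lies above 0, and the orange range crosses 0 for ptgs1, ptges and ptger4b. The intervals are not adjusted for the number of rows tested, and none of the 8 genes was called in this fit.

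The other genes of prostaglandin synthesis, breakdown, transport and reception were taken from lists of 38 names beside the 9, of which 33 were matched and 23 tested. None was called by edgeR's quasi-likelihood test, and 18 had positive and 5 negative log2 fold changes, with a median of 0.18 against 0.01 over all rows tested. Positive values were found for 9553 of all 18541 rows tested. DESeq2 with the block called 1 of the 23, ptgis, which encodes prostacyclin synthase. It gave no adjusted p for akr1b1, cyp4f3, ptger1a, ptger1b and ptgir, so these could not be called. The level of ptgis was 111, 49.5 and 49.0 CPM in BMS replicates 2, 3 and 4, and 46.6, 30.5 and 32.7 CPM in vehicle replicates 2, 3 and 4. Each BMS library was above every vehicle library, which held for 2.16% of all rows tested, and BMS replicate 2 was the highest.

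Fitted without the block, the log2 fold change of ptgis was 0.93 ± 0.38 (edgeR adjusted p = 1.0) and it was 0.84 ± 0.21 by DESeq2 with the block (adjusted p = 0.0253). All 3 pairs had more ptgis in BMS, with differences of 1.24, 0.69 and 0.58 log2 units in numbers 2, 3 and 4. The quasi-likelihood fit with the block did not call it (adjusted p = 0.454). Without BMS replicate 2 the value was 0.44, and the DESeq2 call was lost without both libraries of number 2, 3 or 4 (adjusted p = 0.252, 0.145 and 1.0). In these 3 fits ptgis was at 0.65, 0.89 and 0.98, and the Hedgehog target gli1 lost its call in each as well. Fewer libraries make a call harder, so its loss does not show that the difference was absent. The prostacyclin receptor gene ptgir was low, at 1.51, 4.47 and 1.17 CPM in BMS replicates 2, 3 and 4 and 1.32, 1.60 and 1.71 CPM in vehicle replicates 2, 3 and 4. BMS replicate 3 stood above the other libraries, and without it the log2 fold change of ptgir was -0.22, against 0.63 ± 0.51 with it.

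Over the whole list of terminal synthases, including ptgdsb.1, ptges and ptges3a, 11 of 13 tested genes had positive and 2 negative values (median 0.23), and 7 were higher in 3 of 3 pairs. Of all 18541 rows tested, 9553 had positive values and 14.1% were higher in 3 of 3 pairs. The list includes genes chosen with earlier results known, so these counts are descriptions. Besides ptgdsb.1 and ptgis, the tested synthase genes of smallest p were cbr1l, a carbonyl reductase-like gene (0.49 ± 0.31, and 0.24 without BMS replicate 2), and si:dkey-180p18.9, which RefSeq names akr1b1.2, an aldo-keto reductase (0.30 ± 0.30). Neither was called.

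Of the genes of prostaglandin transport and breakdown, 5 of 8 tested had positive and 3 negative values (median 0.10), and none was called. The gene slco2a1 encodes the prostaglandin transporter that takes prostaglandins up from outside the cell. It was at 14.6, 9.60 and 17.4 CPM in BMS replicates 2, 3 and 4, and at 10.4, 8.31 and 6.79 CPM in vehicle replicates 2, 3 and 4. Each BMS library was above its pair, and BMS replicate 3 lay within the vehicle range. Its log2 fold change was 0.71 ± 0.32 (edgeR unadjusted p = 0.0517, adjusted p = 1.0). The related carrier gene slco3a1 was lower in BMS in 3 of 3 pairs, at 12.8, 37.5 and 14.1 CPM in BMS replicates 2, 3 and 4 and 26.3, 42.0 and 20.9 CPM in vehicle replicates 2, 3 and 4 (-0.47 ± 0.45). Its unblocked value was -0.22 without BMS replicate 2, -1.15 without BMS replicate 3 and -0.14 without vehicle replicate 3. With the block, the quasi-likelihood fit gave -0.58 ± 0.20 for slco3a1 (adjusted p = 0.657). Of all rows tested, 17.5% were lower in BMS in 3 of 3 pairs. The prostaglandin reductase gene ptgr1, which acts after hpgd, had a value of 0.33 ± 0.33, and -0.020 without BMS replicate 2.

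Of the 14 prostanoid receptor genes listed, 12 were matched, 7 were tested and 4 had 0 reads in every library (ptger1c, ptger4a, ptger4c and ptgfr, the last encoding the receptor for prostaglandin F). Among the tested ones, 5 had positive and 2 negative values (median 0.18). The EP2 receptor gene ptger2a was at 9.38, 32.3 and 20.0 CPM in BMS replicates 2, 3 and 4, and at 16.98, 18.7 and 7.499 CPM in vehicle replicates 2, 3 and 4. It was lower in BMS within number 2 and higher within numbers 3 and 4, and its log2 fold change was 0.52 ± 0.47 (adjusted p = 1.0 by edgeR). DESeq2 with the block called it without both libraries of number 2 (1.09 ± 0.28, adjusted p = 0.0192) and not with all libraries (adjusted p = 0.867). That fit was added after seeing the data and left out the pair that went the other way. It called 97 of 18886 rows, so the call of ptger2a is a description only. The unblocked value of ptger2a was 0.86 without BMS replicate 2 and 0.032 without BMS replicate 3. The EP1 receptor gene ptger1b had 7 to 13 reads in BMS libraries and 7 to 26 reads in vehicle libraries (-0.42 ± 0.57).

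Upstream, 13 genes of arachidonate release were tested, with 8 positive and 5 negative values and a median of 0.02. Those of smallest p were zgc:92162, which RefSeq names pla2g10, a secreted phospholipase A2 (0.61 ± 0.37, and 0.27 without BMS replicate 2), mgll, the lipase of monoacylglycerols (-0.38 ± 0.32), and pla2g6, a calcium-independent phospholipase (-0.22 ± 0.30, and -0.13 without BMS replicate 2). None was called.

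**Figure D3:**
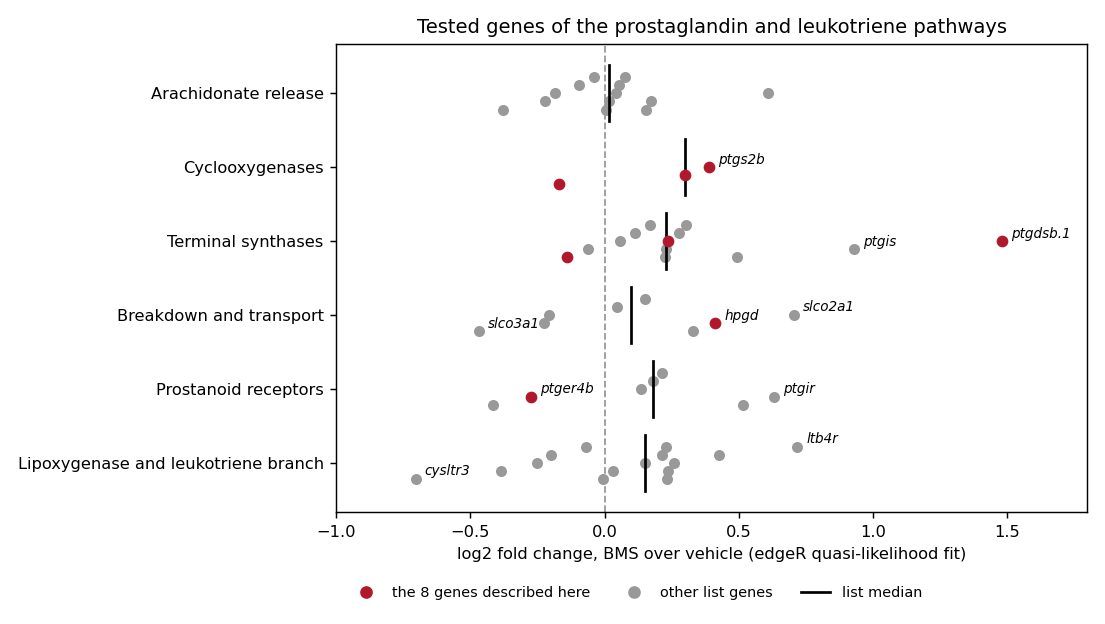
Fitted log2 fold change, BMS over vehicle, of each tested gene on 6 lists of the prostaglandin and leukotriene pathways (horizontal axis, edgeR quasi-likelihood fit without the block), with the 8 genes described here in red, other genes in grey and list medians as black bars; vertical position within a list has no meaning. The terminal synthases ptgdsb.1 and ptgis lie farthest to the right, and the list medians lie between 0.02 and 0.30.

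Marker lists of 12 cell types were set beside ptgdsb.1 and ptgis, and in number 2 some were higher and some lower in BMS. The list of superficial and intermediate epidermis markers had 21 names, of which 20 were matched and 19 tested, none at 0 in all libraries. The gene krtt1c19e stands on this list and also on that of basal epidermis. Against 9553 positive and 8988 negative values over all rows tested, 18 of the 19 tested markers were positive and 1 negative, and none was called. Their summed level ran from 26788 to 44593 CPM in BMS libraries and from 27857 to 32086 CPM in vehicle libraries, with BMS replicate 2 the highest. The mean log2 difference of the tested markers was 0.66, 0.07 and 0.11 within numbers 2, 3 and 4, against 1.85, 0.15 and 1.495 for ptgdsb.1. In number 4 the values were 1.495 for ptgdsb.1 and 0.11 for these markers, and the part of these cells was not tested.

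Of the immune cell markers, 12 of 15 tested macrophage genes and 7 of 7 tested neutrophil genes had positive values, with none called. The neutrophil list held mmp9, mmp13a and cpa5 beside mpx and lyz. Whether the reads of these genes came from neutrophils was not tested. The gene csf1ra stands on both the macrophage and the pigment cell list. The summed macrophage markers ran from 8396 to 14143 CPM in BMS and from 7529 to 11725 CPM in vehicle. The summed neutrophil markers (10 of 12 matched) ran from 361 to 519 CPM in BMS and from 313 to 423 CPM in vehicle, and none of the matched ones was at 0 in all libraries. The mean log2 difference of the tested neutrophil markers was 0.44, 0.12 and 0.44 within numbers 2, 3 and 4. Ionocyte markers were positive in 6 of 6 tested genes, summed to 602 to 903 CPM in BMS and 636 to 763 CPM in vehicle, and differed on average by 0.29, 0.33 and 0.20 log2 units in numbers 2, 3 and 4. Blood markers were negative in 9 of 9 tested genes, summed to 58.6 to 91.6 CPM in BMS and 21.8 to 223 CPM in vehicle, and differed by -1.20, -0.46 and 0.81. In numbers 2, 3 and 4, the mean difference was 0.37, 0.11 and -0.40 for muscle, where 2 genes were tested. It was 0.29, -0.30 and -0.04 for fin mesenchyme, and 0.17, -0.05 and 0.09 for endothelium. For osteoblasts it was -0.10, -0.27 and -0.31, with 3 positive and 8 negative values among 11 tested genes. Pigment cells had -0.02, -0.21 and 0.40, and basal epidermis had -0.05, 0.06 and -0.08. Nerve and Schwann cells had -0.20, -0.01 and 0.31. The muscle genes pvalb1 and pvalb2 and the glial gene plp1b had 0 reads in all libraries. The part of these cell types in the values of ptgdsb.1, ptgis and hpgd was not tested.

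Over the 6 libraries, the rows whose course was most like that of ptgdsb.1 were rbp4, si:dkey-16p21.8 and zgc:193505, by the root mean square difference of log2 levels after each row was centred (0.17, 0.28 and 0.28 log2 units). The first, rbp4, encodes a plasma retinol carrier that is also a lipocalin. It was at 100.4, 17.8 and 58.6 CPM in BMS replicates 2, 3 and 4, and at 26.6, 17.2 and 22.4 CPM in vehicle replicates 2, 3 and 4. As with ptgdsb.1, BMS replicates 2 and 4 lay above every vehicle library and BMS replicate 3 lay within the vehicle range. These rows were chosen for their likeness to ptgdsb.1 in these same libraries, so shared placement and calls are no separate support. DESeq2 with the block called rbp4 (1.12 ± 0.29, adjusted p = 0.0303) and zgc:193505 (adjusted p = 0.00333), and not si:dkey-16p21.8 (adjusted p = 0.536). The quasi-likelihood fit with the block called none of the 3. The rbp4 call was lost without both libraries of number 2 or of number 4 (adjusted p = 1.0 in both), as that of ptgdsb.1 was, and the zgc:193505 call was lost without both of number 4. Without both libraries of number 3, DESeq2 with the block called si:dkey-16p21.8 (1.39 ± 0.35, adjusted p = 0.0257), as it did rbp4 and zgc:193505. Without the block, rbp4 was at 1.41 ± 0.52, and at 0.83 without BMS replicate 2. For si:dkey-16p21.8 and zgc:193505 the unblocked values were 1.14 ± 0.54 and 1.1497 ± 0.48, and 0.35 and 0.52 without BMS replicate 2. The other tested lipocalin on the list, apodb, an apolipoprotein D gene, had a value of 0.46 ± 0.35 (edgeR adjusted p = 1.0), and 0.20 without BMS replicate 2. For ptger4b, the gene of lowest fitted value, the nearest rows were CU210845.1, ptger1b and galnt16 (0.11, 0.11 and 0.14 log2 units), none above 2.22 CPM in any library.

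**Figure D4:**
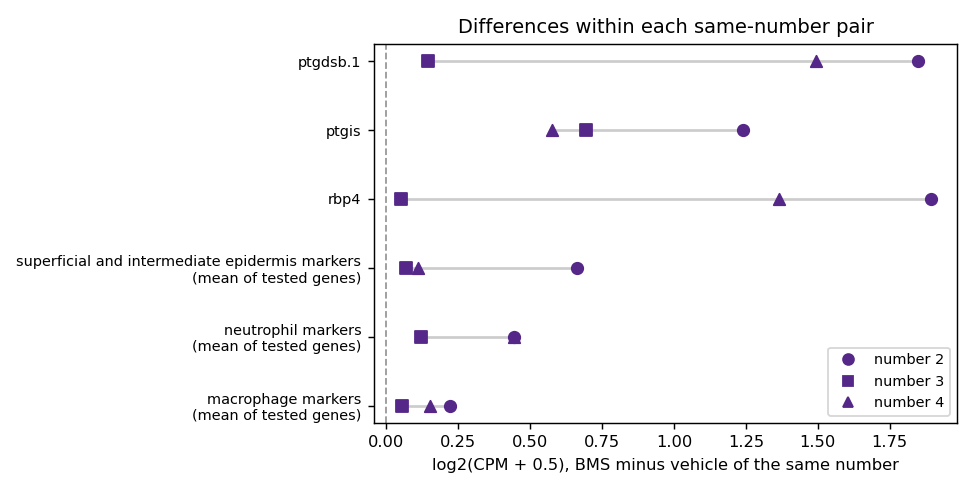
Difference of log2(CPM + 0.5), BMS minus vehicle, between libraries of the same replicate number (circle for number 2, square for 3, triangle for 4) for ptgdsb.1, ptgis, rbp4 and the mean of the tested genes of 3 marker lists. ptgdsb.1 and rbp4 differed by 0.15 and 0.05 in number 3 and by over 1 log2 unit in numbers 2 and 4, while ptgis ran from 0.58 to 1.24.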

How the data were processed

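RNA was measured in 6 pooled libraries. The authors deposited whole-number counts per gene row (31901 rows) and a normalized signal on a CPM scale (11549 rows). Per the submitters' processing notes the build was GRCz11. These notes list, without roles, HTSeq 0.6.1, edgeR 4.3.2, Bowtie2 2.33 and TopHat2 2.1.1. The sources used here do not give the annotation, the strand setting or the handling of shared reads. In the 11399 rows with unique names, dividing the normalized values by 1 factor per library returned the deposited counts (100% whole within 0.001 reads).

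The counts were tested with edgeR 4.0.16 (R 4.3.3, limma 3.58.1): TMM scaling, filterByExpr by group, robust quasi-likelihood F test, group as the only term, two-sided, Benjamini-Hochberg adjustment over 18541 rows, threshold 0.05. Fits were tested on simulated data with differences between pairs built in and dispersions from the blocked design. Such data cannot decide between the fits with and without the block. SEs of the quasi-likelihood fits are the log2 fold change over the root of F, and those of DESeq2 are the ones it reports. DESeq2 1.42.0, limma-voom, the likelihood ratio test, other scalings, no filter, a replicate block, summed paralogs, the normalized table (log2 of value plus 0.5, limma) and leaving out libraries were alternatives. Omitting both libraries of a number was added after seeing the data. Same-number libraries pair by the data: the correlation, across genes, of deviations from group means was 0.66, 0.66 and 0.71 for numbers 2, 3 and 4 (limit 0.1). Between different numbers it ran from -0.58 to -0.20. The deviations of the 3 libraries of a group sum to 0, so these correlations are not independent of each other. The labels state no pairing, and genes are not independent replicates. Within each group the counts of any pair of libraries differed by more than counting error (chi-square over its degrees of freedom, 32.9 to 132). A CPM of 0 counts is limited by 3 counts. Pair differences use log2(CPM + 0.5).

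The genes, lists and rules were chosen with earlier results of these data known. Named genes are all 9, in each list the 3 other tested genes of smallest p and any called by a fit, and the 3 rows most like the genes of highest and lowest fitted value. Names were matched by symbol or by RefSeq synonym (GRCz12tu).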

Additional observations from a re-analysis of the deposited data

How the results depend on the processing

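The count of rows called was 0 in the fit without the block. It was 1 with DESeq2 and with the likelihood ratio test, 72 with DESeq2 and 104 with the likelihood ratio test under the replicate block, and 0 under the other planned settings, including leaving out each library (0 to 0). With the replicate block the DESeq2 count was 97, 49 and 5 without both libraries of number 2, 3 and 4. Of the 8 prostaglandin genes, 1 (ptgdsb.1) was called with the replicate block by DESeq2 and by the likelihood ratio test, and by DESeq2 without both libraries of number 3. Of the genes on the 6 pathway lists, 2 (ptgdsb.1 and ptgis) were called by these tests with the replicate block, and 1 by DESeq2 with the block without both libraries of number 2 (ptger2a) or number 3 (ptgdsb.1). With the replicate block, limma-voom and the quasi-likelihood test called 0 of them. Scaling to total counts put the all-row median at -0.10 and turned the direction of none of the 8 genes.

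Of 199 values of the 8 genes under alternatives, 183 kept their direction and side of the threshold, 3 became called and 13 turned sign. Leaving out 1 library gave -0.69 to 0.28 for ptgs1, -0.48 to 0.22 for ptges and -0.51 to 0.047 for ptger4b. Without both libraries of number 4, the fits without the block and with DESeq2 and the block gave 0.069 and 0.063 for ptgs1, -0.077 and -0.089 for ptgs2a, -0.092 and -0.069 for ptgs2b, 0.26 and 0.29 for ptger4b, and 0.41 and 0.51 for ptger1b; the second gave -0.010 for ptger2a. With 1 library left out, the range was -1.23 to 0.015 for cysltr3, -0.76 to 0.091 for ptger1b, -0.22 to 0.97 for ptgir and -0.020 to 0.53 for ptgr1. Without both libraries of number 3, ptgir was at -0.21 and -0.20 in these fits. The cause was not tested. Reads per library ran from 28 to 262 for ptgs1, ptges and ptger4b, and from 3587 to 14741 for ptgs2a.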

Other observations

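The lipoxygenase and leukotriene branch uses the same arachidonic acid to make leukotrienes, lipids that attract and activate immune cells. Of its 20 listed genes, 18 were matched and 15 tested, and none was called by edgeR's quasi-likelihood test or by DESeq2 with the block. DESeq2 with the block gave no adjusted p for ltb4r, alox5ap and cysltr1, so it could not call them. Of the 15, 9 had positive and 6 negative log2 fold changes, with a median of 0.15 against 0.01 over all rows tested. Within pairs, 5 of the 15 were higher in BMS in 3 of 3 pairs and 1 was lower, against 14.1% and 17.5% of all rows tested. The leukotriene B receptor gene ltb4r had 29, 41 and 41 reads in BMS replicates 2, 3 and 4, and 25, 25 and 31 reads in vehicle replicates 2, 3 and 4. In CPM its BMS libraries (1.66 to 2.19) lay above its vehicle libraries (1.05 to 1.23), which held for 2.16% of all rows tested. The log2 fold change of ltb4r was 0.72 ± 0.35 (edgeR adjusted p = 1.0). The dipeptidase gene dpep2 also had separate ranges, 4.28 to 4.84 CPM in BMS and 3.07 to 3.88 CPM in vehicle (0.43 ± 0.29). So did the gamma-glutamyltransferase gene ggt5a, named after its values were seen, by a narrow gap: 16.42 to 19.6 CPM in BMS and 13.96 to 16.41 CPM in vehicle (0.23 ± 0.26). The 1 gene lower in 3 of 3 pairs was the cysteinyl leukotriene receptor gene cysltr3, at 0.53 to 3.19 CPM in BMS and 0.93 to 5.87 CPM in vehicle (-0.70 ± 0.68, and -0.27 without BMS replicate 2). With the block, the quasi-likelihood fit gave -0.71 ± 0.27 for cysltr3 (adjusted p = 0.687).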
